A study of Mus musculus with 13 samples.

Results

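S1 kidney tubules of mice primed with a small dose of endotoxin and then challenged were compared with those of mice that met the same challenge unprepared. The comparison used 9 of the 13 arrays of the study, 5 titled LPS/LPS and 4 titled LPS, chosen by those titles alone. Each array measured total RNA of S1 tubules, the first stretch of the proximal tubule, and all mice were male C57BL/6J. The LPS mice received 1 intraperitoneal injection of lipopolysaccharide (LPS, serotype 0111:B4) at 5 mg/kg, labelled as 100 ug, and were studied at 24 h. The LPS/LPS mice received 0.25 mg/kg, labelled as 5 ug, and 24 h later the same 5 mg/kg, again with 24 h to collection. The 4 remaining arrays came from mice given saline. Their levels appear as a baseline, and they also entered the model fit that estimated the spread behind each p-value. None of the 13 arrays came from a mouse given the small dose alone, so an effect of that dose and its effect on the response to the second cannot be told apart. Nothing in the labels states that arrays came from different animals, so the p-values reflect variation among these samples alone, which may be technical. How the tubules were isolated and how old the mice were is not given in the labels.

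LPS, the outer membrane lipid of Gram-negative bacteria, is sensed by Toll-like receptor 4 with the help of CD14, and it switches on cytokines, interferons and the genes that interferons induce. A small earlier dose blunts the response of many cells to a later one, which is known as endotoxin tolerance or preconditioning. The S1 segment reclaims glucose, amino acids, phosphate and filtered protein, is rich in mitochondria, and can take up endotoxin from the filtrate.

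Values are log2 expression levels per probe set, with 1 probe set for each of 22180 genes, and a difference is LPS/LPS minus LPS on the log2 scale. The arrays carried no detection calls. Olfactory receptor genes, taken as mostly silent in kidney, gave a background reference: the 95th percentile over 1105 of them was 4.77, and 2207 genes (9.95%) had a mean over all arrays above it. Array medians lay between 3.56 and 3.68. Correlations across genes averaged 0.855 within the LPS and LPS/LPS groups and 0.846 between them. The spread of log2 values over genes was 1.04 ± 0.0435 (SD, n = 4) on LPS arrays and 0.989 ± 0.0324 (SD, n = 5) on LPS/LPS arrays, a difference of -0.0538 (two-sided exact permutation test, p = 0.0714, with 0.00794 the smallest p possible). Arrays were also put into classes, wide and narrow, by the SD over all probe sets instead of over genes. In the LPS group replicate 1 was narrow and the others wide. In the LPS/LPS group replicates 1 and 5 were wide and the others narrow. Over genes, the spread of LPS/LPS replicate 5 (0.984) was close to that of LPS/LPS replicate 2 (0.982), a narrow array. Differences among wide and among narrow arrays are given beside many of the results. Those among narrow arrays rest on 1 LPS array.

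The tubule label was checked against marker genes. Of 34 measured S1 and S2 markers, 16 had means above the reference, as did 5 of 14 S3 markers. The same held for 4 of 25 markers of later segments, from the loop of Henle to the collecting duct, 0 of 8 for podocytes, 1 of 16 for endothelium, 3 of 14 for fibroblasts and mural cells, 1 of 22 for macrophages, 0 of 14 for neutrophils and 1 of 13 for lymphocytes. Slc34a1, the brush-border sodium-phosphate cotransporter, was at 9.65, 10.12, 10.91 and 9.48 on LPS arrays and at 10.06, 9.13, 8.31, 8.76 and 9.86 on LPS/LPS arrays, among the brightest of the markers in both groups. The probe set of Slc5a2, the glucose transporter that defines this segment, stayed below the reference on all 9 arrays (3.72 to 4.49).

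Genes that passed the test were all lower after preconditioning. They included an antigen-presenting class I gene, the interferon-inducible GTPase gene Irgm1 and the guanylate-binding pseudogene Gbp11, the natriuretic peptide gene Guca2b, the brush-border linker gene Ezr, and the nuclear RNA Malat1. limma with Benjamini-Hochberg adjustment over all genes called 14 genes lower and 0 higher at an adjusted p under 0.05, which is 0.0631% and 0% of the genes tested. At an adjusted p under 0.1 there were 37, and all 37 were lower. At an unadjusted p under 0.05 the directions were near balance, with 995 genes lower (4.49%) and 915 higher (4.13%), 1910 in all (8.61%). The arrays of both groups did not overlap for 288 genes on the lower side (1.3%) and 245 on the higher side (1.1%).

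Sizes of change were less balanced than counts. Over all genes the median difference was 0.05, and 40.7% of genes were lower, yet 253 genes were lower by more than 1 and 29 were higher by more than 1. Brighter genes leaned downward. Among genes with means between 4.77 and 6 the median difference was 0.02. It was -0.08 for 182 genes between 6 and 8, -0.41 for 26 genes between 8 and 10, and -0.64 for 15 genes above 10, of which 14 were lower. The brightest bin holds under 20 genes, and its median was -0.02 among wide arrays and -0.24 among narrow ones. Between 6 and 8 these values were -0.24 and -0.002, and between 8 and 10 they were -0.20 and -0.13. Of the 2207 genes with means above the reference, 267 were lower and 83 higher at an unadjusted p under 0.05, and 134 were lower by more than 1 against 5 higher by more than 1.

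**Figure D1:**
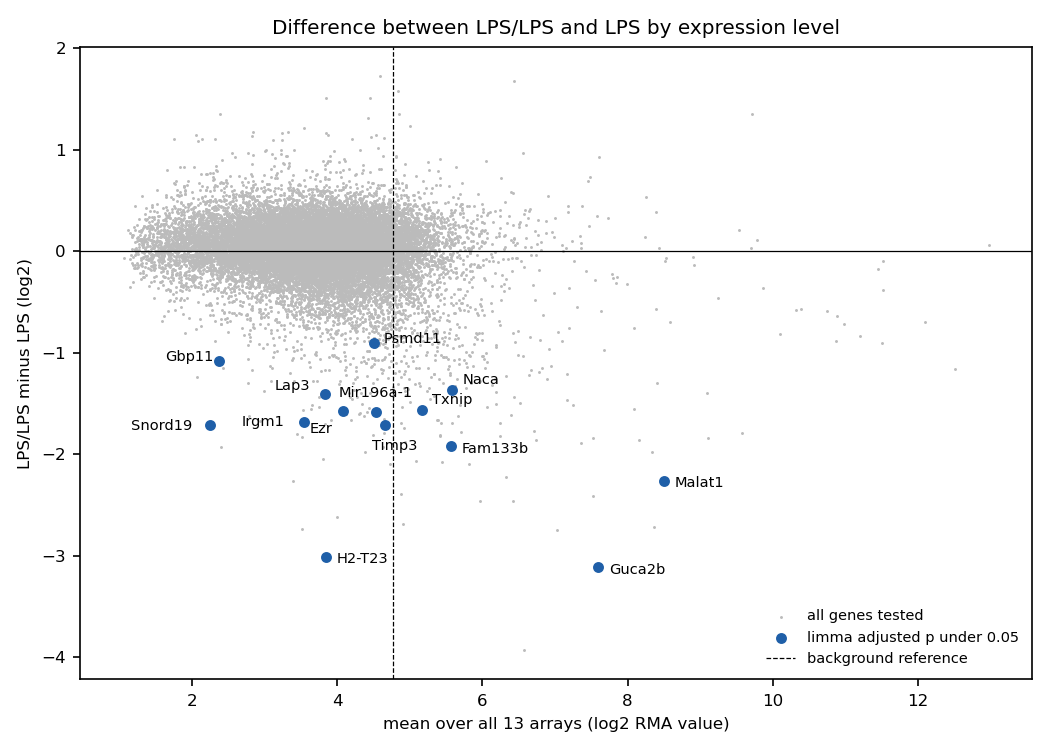
Difference between LPS/LPS and LPS (log2, vertical axis) against the mean log2 level over all 13 arrays (horizontal axis) for 22180 genes; blue points are the 14 genes with a limma adjusted p under 0.05 and the dashed line is the background reference of 4.77. All blue points lie below 0, from -0.90 for Psmd11 to -3.11 for Guca2b, and the large differences of bright genes point mostly downward.

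Immune genes were among the 14. H2-T23 encodes Qa-1, a class I molecule that shows peptides to receptors of natural killer cells and some T cells. Its log2 level was 5.05, 6.08, 5.05 and 6.69 on the LPS arrays and 2.48, 3.39, 2.37, 2.87 and 2.44 on the LPS/LPS arrays. Every LPS array lay above the reference and every LPS/LPS array below it, with saline at a mean of 3.42. H2-T23 fell by 3.01 (SE 0.33, limma adjusted p = 0.0060), 8.04-fold, and its difference was -3.48 among wide and -2.17 among narrow arrays. Irgm1 encodes an interferon-inducible GTPase that regulates its relatives in defence against intracellular microbes. It was at 4.34, 4.51, 5.32 and 4.67 after the single dose and at 3.52, 2.97, 2.85, 2.74 and 3.06 after preconditioning. The groups did not overlap, and the LPS/LPS mean of 3.03 was close to the saline mean of 3.02. Irgm1 fell by 1.68 (SE 0.27, limma adjusted p = 0.0417). Gbp11, which RefSeq annotates as a transcribed pseudogene of the guanylate-binding protein family, was dim throughout. Its LPS arrays read 3.15, 2.75, 3.03 and 3.56 and its LPS/LPS arrays 1.69, 2.10, 1.98, 2.25 and 2.20. It fell by 1.08 (SE 0.17, limma adjusted p = 0.0365), between groups that were both below the reference, as were both means of Irgm1. Probe sets of close relatives in the H2, Irgm and Gbp families can share signal, so the member is uncertain. Sizes below the reference are uncertain too.

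The sequences before the starts of called genes were read because several are known interferon targets. RefSeq promoters (mouse assembly GRCm38.p6) were matched for 11 of the 14 genes. The 250 bases before each start were searched on both strands for the interferon-stimulated response element GAAANNGAAA (ISRE), the STAT site TTCNNNGAA (GAS), the E-box CACGTG and the NF-kB site GGGNNNNNCC. Of 32851 promoters of that length, 2.98% held an ISRE, 7.02% a GAS, 6.02% an E-box and 45.8% an NF-kB site. The last motif is too common to tell promoters apart. Irgm1 (chr11:48871421-48871670, minus strand) held overlapping ISRE matches, at bases 30 to 21 and 24 to 15 before the start. H2-T23 (chr17:36032702-36032951, minus strand) held 1 on the opposite strand at bases 124 to 115. Both are shown 5′ to 3′ on the gene's strand, with the matches in capitals.
Irgm1: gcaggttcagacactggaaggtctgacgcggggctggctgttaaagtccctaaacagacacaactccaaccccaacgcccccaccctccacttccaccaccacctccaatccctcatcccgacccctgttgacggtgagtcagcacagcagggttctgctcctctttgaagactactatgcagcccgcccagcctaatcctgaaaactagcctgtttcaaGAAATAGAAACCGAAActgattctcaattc
H2-T23: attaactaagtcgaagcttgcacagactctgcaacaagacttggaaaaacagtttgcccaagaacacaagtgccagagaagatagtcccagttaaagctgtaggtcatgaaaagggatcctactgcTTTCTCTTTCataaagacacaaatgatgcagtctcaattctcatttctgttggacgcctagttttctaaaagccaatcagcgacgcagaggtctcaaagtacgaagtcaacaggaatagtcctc

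Epithelial and matrix genes were also among the 14. Guca2b encodes uroguanylin, a peptide that acts through guanylate cyclase C and promotes sodium excretion. Its level was 8.53, 10.19, 9.34 and 9.29 on LPS arrays and 6.53, 5.70, 7.36, 5.58 and 5.95 on LPS/LPS arrays. All 9 values lay above the reference, the groups did not overlap, and saline stood between them at a mean of 7.57. Guca2b fell by 3.11 (SE 0.40, limma adjusted p = 0.0111), 8.65-fold, the largest difference among the 14. Timp3 encodes an inhibitor of metalloproteinases that is held in the extracellular matrix. Its LPS arrays were at 4.96, 5.94, 5.26 and 5.72 and its LPS/LPS arrays at 3.92, 3.93, 3.57, 3.56 and 3.79, all below the saline range of 4.71 to 5.25. Timp3 fell by 1.71 (SE 0.20, limma adjusted p = 0.0068), with differences of -1.78 among wide and -1.27 among narrow arrays. Ezr encodes ezrin, which ties the actin cores of microvilli to the brush-border membrane. It was at 4.48, 4.75, 5.68 and 5.38 in LPS and 3.76, 3.61, 3.40, 3.23 and 3.52 in LPS/LPS, and it fell by 1.57 (SE 0.24, limma adjusted p = 0.0337). LPS replicate 1 was the lowest of its group for Guca2b, Timp3 and Ezr, and still lay above every LPS/LPS array.

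The promoter of Guca2b (chr4:119658946-119659195, minus strand), the gene with the largest called difference, held 1 GAS match, in capitals, at bases 98 to 90 before the start. None of the other called genes with a promoter here held a GAS, an ISRE or an E-box, apart from Irgm1 and H2-T23. A GAS was thus found in 1 of the 11 promoters read, beside 7.02% of all promoters. A match describes letters only, and binding was not measured.
Guca2b: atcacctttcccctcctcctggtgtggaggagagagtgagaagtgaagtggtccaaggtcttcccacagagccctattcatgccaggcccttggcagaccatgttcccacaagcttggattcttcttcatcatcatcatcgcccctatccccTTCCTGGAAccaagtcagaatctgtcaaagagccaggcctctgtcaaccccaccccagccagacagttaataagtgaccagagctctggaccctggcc

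Noncoding RNAs made up 3 of the 14. Malat1, an abundant long RNA retained in the nucleus, was at 8.97, 9.62, 9.71 and 10.12 on LPS arrays and 8.17, 7.08, 7.20, 6.62 and 7.66 on LPS/LPS arrays. The lowest LPS array was above the highest LPS/LPS array, and the saline mean was 8.84. Malat1 fell by 2.26 (SE 0.29, limma adjusted p = 0.0111), 4.8-fold, and by a like amount among wide (-1.90) and narrow (-2.01) arrays. The probe set named Mir196a-1 was at 6.16, 5.19, 5.22 and 5.75 in LPS and 3.79, 3.97, 4.04, 4.66 and 3.51 in LPS/LPS. It fell by 1.58 (SE 0.24, limma adjusted p = 0.0337). A probe set of this kind cannot tell a mature microRNA from its hairpin or a longer transcript over it. The mature arms of the hairpin, from RefSeq (GRCm38.p6, plus strand), are shown to identify the gene, with the seed (bases 2 to 8) in capitals; their seeds differ.
mmu-miR-196a-5p, chr11:96265187-96265208: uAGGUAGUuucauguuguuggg
mmu-miR-196a-1-3p, chr11:96265225-96265246: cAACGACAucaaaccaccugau

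Snord19, a small nucleolar RNA, was dim, at 2.93, 3.29, 4.31 and 3.28 in LPS and 1.32, 1.68, 2.00, 1.99 and 1.71 in LPS/LPS. It fell by 1.71 (SE 0.24, limma adjusted p = 0.0171), with every value below the reference.

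Genes of protein supply, protein breakdown and redox control made up most of the rest. Naca encodes a subunit of the complex that shields new chains at the ribosome. Its level was 6.48, 6.31, 6.63 and 6.14 in LPS and 5.12, 5.71, 4.51, 4.99 and 4.78 in LPS/LPS, and it fell by 1.37 (SE 0.21, limma adjusted p = 0.0337). Both classes of array gave -1.41. Psmd11 encodes a lid subunit of the proteasome, the protease that degrades ubiquitin-tagged proteins. It showed the smallest difference of the 14 and a narrow spread in LPS, with 4.92, 5.06, 4.95 and 5.13 against 4.03, 3.92, 4.00, 4.51 and 4.11. Psmd11 fell by 0.90 (SE 0.14, limma adjusted p = 0.0337). Lap3, a cytosolic aminopeptidase gene, was at 4.37, 4.58, 5.53 and 4.33 in LPS and 3.37, 3.11, 3.29, 3.02 and 3.71 in LPS/LPS, and it fell by 1.40 (SE 0.23, limma adjusted p = 0.0412). Both group means of Lap3 lay below the reference. Txnip encodes a protein that binds thioredoxin and restrains glucose uptake. It was at 5.75, 6.16, 5.85 and 6.99 in LPS and at 4.93, 4.31, 4.74, 4.33 and 4.82 in LPS/LPS, where the mean of 4.63 was near the saline mean of 4.81. Txnip fell by 1.56 (SE 0.24, limma adjusted p = 0.0337). Fam133b was at 6.43, 7.06, 6.15 and 6.70 against 4.73, 4.80, 3.89, 4.36 and 5.53, and it fell by 1.92 (SE 0.30, limma adjusted p = 0.0337).

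**Figure D2:**
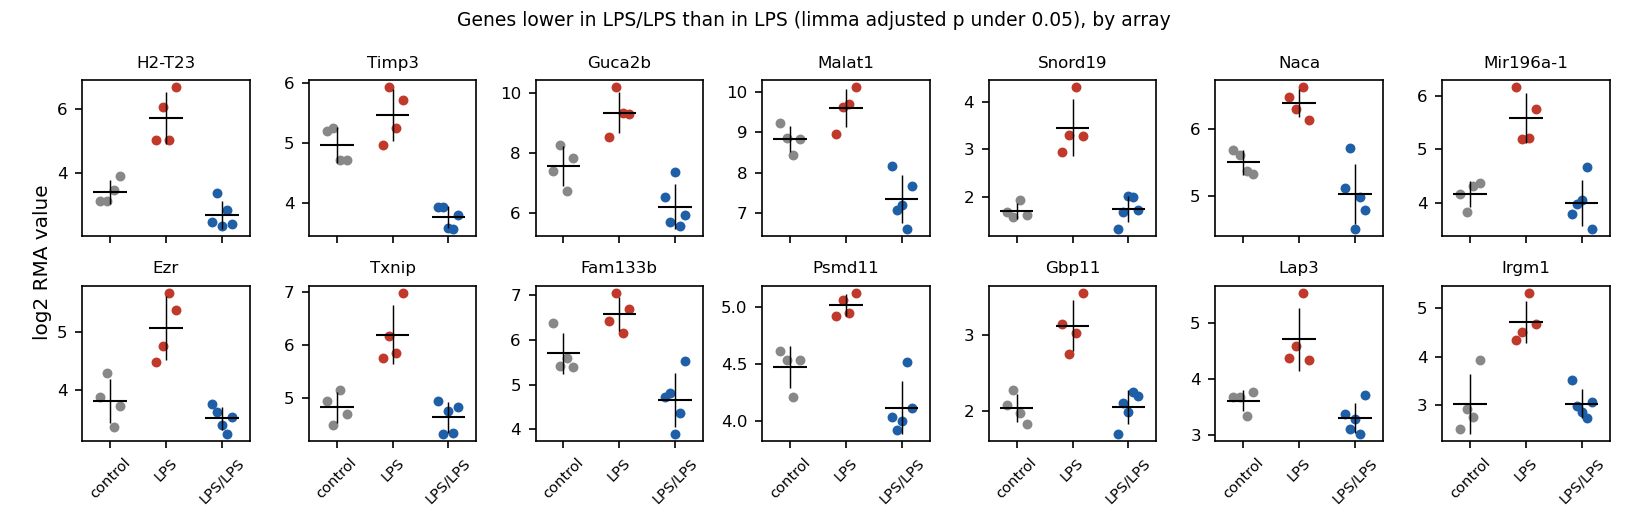
Log2 level on each array for the 14 genes with a limma adjusted p under 0.05; points are single arrays (4 saline, 4 LPS, 5 LPS/LPS), horizontal bars are group means and vertical lines are 1 SD. In every panel all 4 LPS arrays lie above all 5 LPS/LPS arrays; each panel has its own vertical scale.

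The number of calls depended on single arrays. Without LPS replicate 1 limma called 96 genes, 94 lower and 2 higher. It called 6 without LPS replicate 4, 7 without LPS/LPS replicate 4, and 5 without LPS/LPS replicate 2, 3 or 5. The groups did not overlap for any of the 14 genes called on all arrays, so leaving out 1 array could not change their direction. Their unadjusted limma p stayed under 0.05 in each of the 9 fits. As the genes were chosen from the same arrays, this is no independent support. Between 5 and 14 of them kept an adjusted p under 0.05 in the 9 fits. Calls also depended on the saline arrays in the model. A fit of only the LPS and LPS/LPS arrays called 2 genes, each lower.

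Several lower genes stood just outside the threshold with groups that did not overlap. Plin2, which coats lipid droplets, was at 4.46, 5.40, 5.49 and 6.35 in LPS and 3.30, 3.85, 4.06, 3.62 and 3.98 in LPS/LPS (difference -1.66, SE 0.28, limma adjusted p = 0.0590). Among narrow arrays its difference was -0.62, against -2.11 among wide ones. The guanylate-binding protein gene Gbp10 was at 8.62, 9.69, 8.72 and 8.63 in LPS and at 8.20, 6.89, 6.89, 6.65 and 6.77 in LPS/LPS, where replicate 1 stood far above the others (difference -1.83, SE 0.32, limma adjusted p = 0.0607). Iigp1, a GTPase that attacks the vacuoles of intracellular parasites, was at 6.93, 6.39, 5.62 and 6.67 against 5.09, 4.42, 5.08, 5.15 and 5.15 (difference -1.43, SE 0.25, limma adjusted p = 0.0607). Cndp2, a cytosolic dipeptidase gene, was at 5.91, 6.21, 6.08 and 6.13 against 5.03, 3.96, 4.61, 5.04 and 5.05, with a difference of -1.35 (SE 0.24, limma adjusted p = 0.0699). Its saline mean was above both groups, with no saline array under 6.40.

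No gene passed the threshold on the higher side. The 12 genes with the lowest p were taken from non-overlapping genes whose higher group mean, here LPS/LPS, was above the reference. They differed by 0.34 to 0.65, with limma adjusted p between 0.130 and 0.449. Apart from Esrra and Snhg4, their LPS means lay below the reference, where sizes are uncertain. Slc30a3, a zinc transporter gene, was at 4.14, 4.53, 4.27 and 4.01 in LPS and 4.84, 4.94, 4.90, 4.90 and 4.87 in LPS/LPS (difference 0.65, SE 0.14, limma adjusted p = 0.130). Its LPS/LPS arrays were tightly grouped. Esrra encodes an orphan nuclear receptor that drives genes of mitochondrial energy metabolism. It was at 5.54, 5.29, 5.16 and 5.36 in LPS and 5.96, 5.71, 6.06, 5.87 and 5.70 in LPS/LPS (difference 0.52, SE 0.12, limma adjusted p = 0.177). Every value lay above the reference, and the saline mean of 5.74 was nearer to LPS/LPS. Nlrp12, a NOD-like receptor gene, was at 4.76, 4.76, 4.47 and 4.74 in LPS and 4.99, 5.12, 5.04, 5.08 and 5.03 in LPS/LPS (difference 0.37, limma adjusted p = 0.361). Others were the deacetylase gene Hdac11 (0.58), the keratin gene Krt88 (0.50), Mfsd4b4 (0.53) and Rplp0 of the ribosomal stalk (0.62). The rest were the hormone receptor gene Ghrhr (0.45), Tm4sf5 (0.47), the deubiquitinase gene Josd2 (0.45), the RNA Snhg4 (0.34) and the tubulin-binding gene Stmn3 (0.45). With the mean over its probe sets, Hdac11 differed by only 0.24 (limma adjusted p = 0.653).

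**Figure D3:**
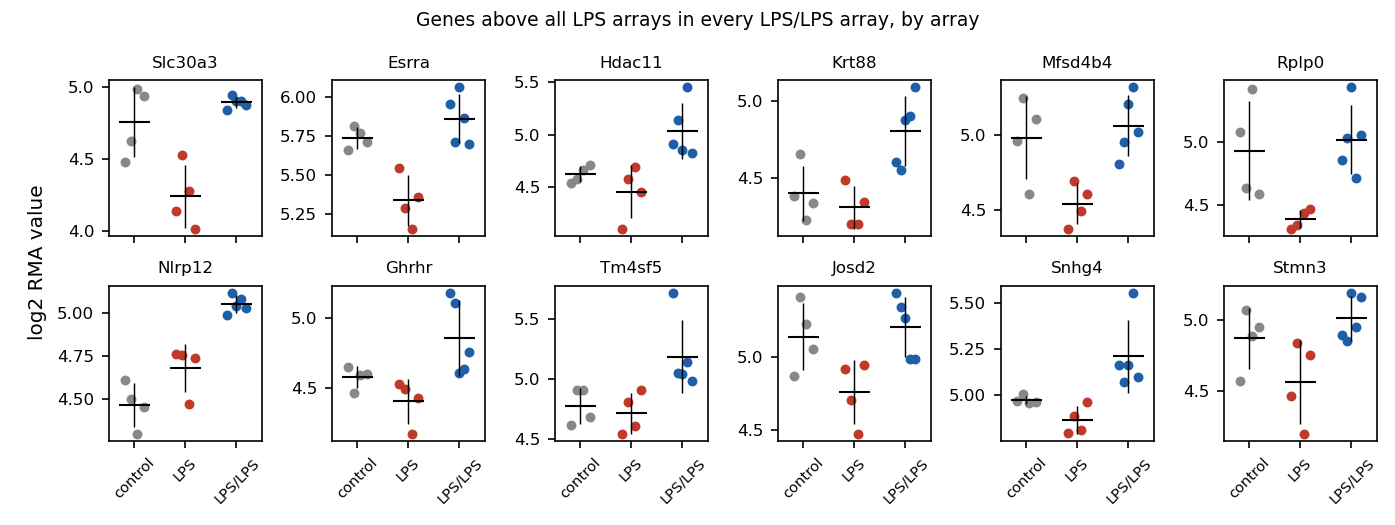
Log2 level on each array for the 12 genes with the lowest p on the higher side, drawn as in the panels of lower genes (points for arrays, bars for means, lines for 1 SD). All LPS/LPS arrays lie above all LPS arrays by the rule that chose the genes, differences run from 0.34 to 0.65, and none passed the adjusted threshold.

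The largest differences by size were not the surest ones, and the 3 genes here were chosen after their values were seen. Ost4, which encodes a small subunit of the oligosaccharyltransferase, was at 8.89, 6.03, 9.63 and 8.42 in LPS and 8.52, 2.17, 3.67, 3.83 and 3.36 in LPS/LPS. LPS/LPS replicate 1 was level with the LPS arrays while the other LPS/LPS arrays were far lower (difference -3.93, SE 1.02, limma adjusted p = 0.262). Snord49a, a small nucleolar RNA, was at 3.29, 4.92, 3.01 and 2.99 against 5.72, 5.50, 5.72, 6.37 and 3.10 (difference 1.73, SE 0.61, limma adjusted p = 0.449). Tpt1, the gene of the abundant protein TCTP, was at 8.92, 10.003, 9.14 and 7.63 against 10.12, 11.06, 10.50, 11.10 and 8.59 (difference 1.35, SE 0.50, limma adjusted p = 0.461). For all 3 the groups overlapped, and LPS/LPS replicate 5 was the low array of its group for both Snord49a and Tpt1.

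Gene lists were described by how many members were lower, how many had an unadjusted p under 0.05, and the median difference. Beside them stand 4.49% lower, 4.13% higher and a median of 0.05 over all genes. Those shares are not matched to the level of list members. At an unadjusted p under 0.05, 267 of 2207 genes with means above the reference were lower. Of 182 genes with means between 6 and 8, 41 were. Over all genes the lower count was 775 (3.49%) without LPS replicate 3. It was 1270 (5.73%) without LPS replicate 1 and 897 without LPS replicate 4. The IRG and GBP GTPases, induced by interferon and active against intracellular microbes, had 11 of 14 measured members lower and a median of -0.49. At an unadjusted p under 0.05, 7 were lower (50%) and 0 higher, and 2 of them, the pseudogene Gbp11 and Irgm1, passed the threshold over all genes. The median level of the list was 3.99, 4.06, 4.01 and 3.91 on LPS arrays and 3.22, 3.53, 3.10, 3.35 and 3.38 on LPS/LPS arrays. The LPS/LPS arrays lay in the range of saline (3.02 to 3.40) or slightly above it. The list median was -0.59 among wide and -0.50 among narrow arrays. Leaving out any 1 array moved it only between -0.39 and -0.61. Igtp, a further member chosen after its values were seen, was at 4.45, 5.69, 4.24 and 4.51 against 3.24, 3.62, 2.43, 3.52 and 3.23 (difference -1.52, limma adjusted p = 0.0919). Means above the reference were seen for 3 of the 14 listed genes.

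Class I presentation genes were split. Of 17 class I and immunoproteasome genes, 12 were lower and 4 of them had an unadjusted p under 0.05 (23.5%), but the median was -0.15, and -0.04 without LPS replicate 1. Beside H2-T23, Tapbp, the chaperone that loads peptide onto class I, was at 4.65, 5.06, 5.51 and 5.34 against 4.60, 4.27, 4.36, 4.54 and 4.26 (difference -0.73, limma adjusted p = 0.353). B2m, the light chain shared by all class I molecules, was at 8.39, 10.14, 10.36 and 10.16 in LPS and 9.02, 8.93, 6.21, 8.74 and 6.62 in LPS/LPS. LPS replicate 1 fell among the LPS/LPS values, and the difference of -1.86 (SE 0.67, limma adjusted p = 0.455) was -2.40 among wide and -0.43 among narrow arrays.

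Interferon-stimulated genes outside those families differed little. Of 36 measured, 25 were lower, 4 with an unadjusted p under 0.05 (11.1%), and the median was -0.05. The lowest p-values belonged to the interferon regulatory factor genes Irf7 (-0.49, limma adjusted p = 0.407) and Irf8 (-0.39, limma adjusted p = 0.487) and to Xaf1 (-0.32, limma adjusted p = 0.449). The reference was passed by the mean of 1 of the 36.

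The genes of the LPS receptor gave differences of opposite sign, neither past the threshold. Cd14, the co-receptor that hands LPS to TLR4, was at 4.78, 6.16, 4.87 and 5.05 in LPS and 3.62, 4.00, 4.47, 3.74 and 3.42 in LPS/LPS, with saline at a mean of 3.72. The groups did not overlap (difference -1.36, SE 0.27, limma adjusted p = 0.0919). Tlr4 itself was dim on every array, at 2.52 to 2.98 in LPS and 2.58 to 3.66 in LPS/LPS (difference 0.23, SE 0.25, limma adjusted p = 0.832). Of 26 feedback inhibitors of TLR and NF-kB signalling, 13 were lower and 13 higher. Those with the lowest p were Nfkbia, which holds NF-kB in the cytosol (-0.66, limma adjusted p = 0.414), the mRNA-decay gene Zfp36 (-0.52, limma adjusted p = 0.467) and Il1rn, the interleukin-1 receptor antagonist (0.53, limma adjusted p = 0.447). Cytokines and chemokines had 20 of 31 members higher and a median of 0.12, with 2 of the 31 above the reference. The median was 0.05 without LPS replicate 3 and 0.02 among wide arrays. Among them Ccl3, a chemokine for monocytes, was at 2.80, 2.51, 2.18 and 2.74 against 3.65, 3.19, 2.80, 3.68 and 3.53, groups that touched without overlap well below the reference (difference 0.81, limma adjusted p = 0.344). Il34 (-0.74) and the interferon-induced chemokine gene Cxcl9 (-0.77) differed the other way, with limma adjusted p of 0.471 and 0.532.

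Acute-phase genes showed large differences in a few members. Of 24 measured, 16 were lower and 7 of them had an unadjusted p under 0.05 (29.2%), while the median was -0.13. The list median was -0.28 among wide and -0.02 among narrow arrays. Orm2, which encodes an orosomucoid of the plasma, was at 6.79, 9.09, 8.08 and 8.69 in LPS and 5.00, 6.65, 5.82, 5.19 and 5.87 in LPS/LPS. The groups did not overlap and the LPS/LPS mean of 5.71 was near the saline mean of 5.59 (difference -2.46, SE 0.43, limma adjusted p = 0.0607). Its probe set may share signal with Orm1. The genes of the 3 fibrinogen chains, the clotting protein, were lower together. Fgb was at 5.35, 6.81, 4.51 and 6.62 against 3.83, 3.96, 4.03, 4.03 and 3.35 (difference -1.98, SE 0.37, limma adjusted p = 0.0897). Fga differed by -1.57 (limma adjusted p = 0.166), and Fgg, chosen after its values were seen, by -2.40 (limma adjusted p = 0.200). Among narrow arrays the differences were -0.90 for Orm2, -1.34 for Fgb, -0.85 for Fga and -0.77 for Fgg, each smaller than among wide arrays (-3.18, -2.39, -1.98 and -3.44).

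Complement, injury and growth-signal lists had medians near 0 and a few members at low p. Cfb, factor B of the alternative complement pathway, was at 5.12, 6.27, 5.88 and 5.50 against 4.33, 4.81, 4.09, 4.53 and 3.99 (difference -1.34, SE 0.26, limma adjusted p = 0.0919). It led the 3 of 13 complement genes that were lower at an unadjusted p under 0.05, with Serping1 (-0.63) and C2 (-0.45); the list median was -0.10, and 0.01 without LPS/LPS replicate 3. Lcn2, the iron-scavenging injury marker lipocalin 2, was at 4.58, 6.16, 5.99 and 5.73 in LPS and 5.12, 4.45, 4.81, 4.38 and 4.11 in LPS/LPS. LPS replicate 1 lay among the LPS/LPS arrays (difference -1.04, SE 0.29, limma adjusted p = 0.296), and the narrow arrays gave -0.04. Havcr1, which encodes kidney injury molecule-1, differed by -0.62 (limma adjusted p = 0.371) and by -0.01 among narrow arrays. The transcription factor gene Klf6 was at 4.75, 5.00, 4.85 and 3.71 against 3.95, 3.47, 3.31, 4.06 and 3.69 (difference -0.88, limma adjusted p = 0.371). Of 26 injury genes 5 were lower at an unadjusted p under 0.05 (19.2%), with a median of -0.10. The median was -0.04 without LPS replicate 1 and -0.02 without LPS/LPS replicate 5. JAK-STAT3 and growth factor genes had 4 of 24 lower at an unadjusted p under 0.05 (16.7%), 7 without LPS replicate 1 and 2 without LPS replicate 4. Their median was -0.02, and the lowest p belonged to the kinase gene Pim3 (-0.68, limma adjusted p = 0.234).

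Genes of the unfolded protein response, which restores folding capacity in the endoplasmic reticulum, were lower in 20 of 25 cases. Of these, 10 had an unadjusted p under 0.05 (40%), and the list median was -0.40, or -0.37 among wide and -0.13 among narrow arrays. Without LPS replicate 3, 6 members were at that level. Hspa5, the main chaperone of that compartment, was at 5.43, 6.14, 5.75 and 5.89 in LPS and 4.98, 4.97, 5.28, 4.83 and 4.70 in LPS/LPS (difference -0.85, SE 0.20, limma adjusted p = 0.200). Herpud1, of the pathway that removes misfolded proteins, was at 5.74, 5.83, 5.73 and 6.52 against 5.24, 4.87, 5.12, 4.78 and 5.37 (difference -0.88, SE 0.19, limma adjusted p = 0.145). Xbp1, a transcription factor of the response, differed by -1.09 (limma adjusted p = 0.177). For all 3 the groups did not overlap. The integrated stress response, which slows translation, had a median of -0.02 over 20 genes. At an unadjusted p under 0.05, 3 were lower (15%) and 1 higher. Only 3 of the 20 had means above the reference. Among genes above it the median was -0.65 for this list and -0.68 for the unfolded protein response. Atf4, a transcription factor gene of the integrated stress response, was at 6.24, 5.87, 5.27 and 5.21 against 4.84, 4.10, 4.50, 3.43 and 4.69 (difference -1.34, SE 0.47, limma adjusted p = 0.449). The amino acid transporter subunit gene Slc3a2 differed by -0.63 (limma adjusted p = 0.203) and the hormone gene Fgf21 by 0.48 (limma adjusted p = 0.468). Heat shock chaperones had 4 of 17 lower at an unadjusted p under 0.05 (23.5%), led by the mitochondrial chaperone gene Hspa9 (-0.78), Cct2 (-0.78) and Hspe1 (-1.21), each with a limma adjusted p above 0.3.

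Genes that mark the differentiated proximal tubule and its mitochondria were lower as lists, and single arrays, not the same for every list, weighed heavily on them. Of 34 S1 and S2 markers, 32 were lower and 12 of these had an unadjusted p under 0.05 (35.3%), with a median of -0.48. The median level of these markers was 4.24, 4.70, 5.88 and 5.14 on LPS arrays and 4.51, 4.05, 4.13, 4.38 and 4.39 on LPS/LPS arrays. LPS replicate 3 stood highest, LPS replicate 1 lay inside the LPS/LPS range, and saline (4.57 to 5.14) lay above all LPS/LPS arrays. Without LPS replicate 3 the list median was -0.26, and 2 members were left at an unadjusted p under 0.05. Among narrow arrays the median was -0.01. The bicarbonate cotransporter gene Slc4a4 was at 5.18, 6.46, 6.80 and 7.01 against 5.43, 5.02, 4.12, 5.05 and 5.55 (difference -1.33, SE 0.37, limma adjusted p = 0.322). The neutral amino acid transporter gene Slc6a19 differed by -0.91 (limma adjusted p = 0.223), Acsm2 by -0.80 (limma adjusted p = 0.449) and Slc34a1 by -0.81 (limma adjusted p = 0.539). The endocytic receptor genes Lrp2 (megalin) and Cubn (cubilin), chosen after their values were seen, show the array effect: LPS replicate 3 read 7.53 and 6.9996, and the next highest LPS array 5.95 and 4.45. In bulk tubules fewer cells of a type and less RNA per cell cannot be told apart. S3 markers had a median of -0.19, which was -0.0004 without LPS replicate 3. Among them Atp11a, a lipid flippase gene, was at 5.40, 6.56, 6.07 and 6.90 against 5.08, 4.14, 4.35, 3.88 and 4.62, with no overlap (difference -1.82, SE 0.37, limma adjusted p = 0.120).

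Nuclear-encoded subunits of oxidative phosphorylation were lower in 48 of 52 cases, with 14 at an unadjusted p under 0.05 (26.9%) and a median of -0.66 (-0.87 among wide and -0.17 among narrow arrays). Means above the reference were seen for 24 of the 52. The list median on LPS arrays was 4.45, 4.77, 6.07 and 4.65, and on LPS/LPS arrays 4.68, 4.30, 4.23, 4.21 and 3.95. Among LPS arrays replicate 3 alone stood above the saline range (4.37 to 4.93), and LPS/LPS replicates 2 to 5 lay below it. Without LPS replicate 3 the median difference was -0.24, and 4 members were lower at an unadjusted p under 0.05, beside 3.49% of all genes. Without LPS replicate 1 there were 24, beside 5.73% of all genes. Uqcrh, of complex III, was at 4.15, 4.91, 5.56 and 4.48 against 3.81, 3.58, 3.54, 2.39 and 3.38, with no overlap (difference -1.44, SE 0.30, limma adjusted p = 0.122). The complex I gene Ndufa2 differed by -1.74 (limma adjusted p = 0.254) and the complex IV gene Cox6a1 by -1.52 (limma adjusted p = 0.354). The 10 measured genes of the mitochondrial genome were all lower (median -0.71), but their level ranged from 9.70 to 12.30 over LPS arrays and from 8.05 to 11.92 over LPS/LPS arrays. The median was -0.11 among wide and -0.11 among narrow arrays, and -0.26 after quantile normalization. It was -1.14 without LPS replicate 1, -0.35 without LPS replicate 4 and -0.22 without LPS/LPS replicate 4. COX3, with the lowest p of the 10, differed by -0.90 (SE 0.42, limma adjusted p = 0.579).

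Fuel metabolism lists were lower in the same way. Tricarboxylic acid cycle genes had 19 of 21 lower, 8 at an unadjusted p under 0.05 (38.1%), and a median of -0.43. Fatty acid oxidation and peroxisome genes had 25 of 29 lower, 8 at an unadjusted p under 0.05 (27.6%), and a median of -0.44. Gluconeogenesis and amino acid catabolism genes had 23 of 30 lower, 9 at an unadjusted p under 0.05 (30%), and a median of -0.27. Without LPS replicate 3 the medians of these lists were -0.24, -0.23 and -0.11, with 3, 6 and 4 members at an unadjusted p under 0.05, and among narrow arrays 0.01, 0.04 and 0.02. Some members kept a difference in both classes of array. Glul, which makes glutamine from ammonia, was at 6.23, 6.86, 6.97 and 5.95 against 5.53, 5.26, 5.10, 4.29 and 4.76, and gave -1.45 among wide and -1.35 among narrow arrays (difference -1.52, SE 0.28, limma adjusted p = 0.0868). Pdk4, the kinase that restrains pyruvate oxidation in fasting, was at 5.31, 7.11, 5.00 and 6.17 against 3.88, 4.73, 4.29, 4.03 and 4.28 (difference -1.66, SE 0.35, limma adjusted p = 0.122). The peroxisomal oxidation gene Ehhadh differed by -1.60 (limma adjusted p = 0.130), the acyl-CoA dehydrogenase gene Acadl by -1.06 (limma adjusted p = 0.160), and the fumarase gene Fh1 by -0.74 (limma adjusted p = 0.290). For Acadl and Fh1 both group means lay below the reference.

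**Figure D4:**
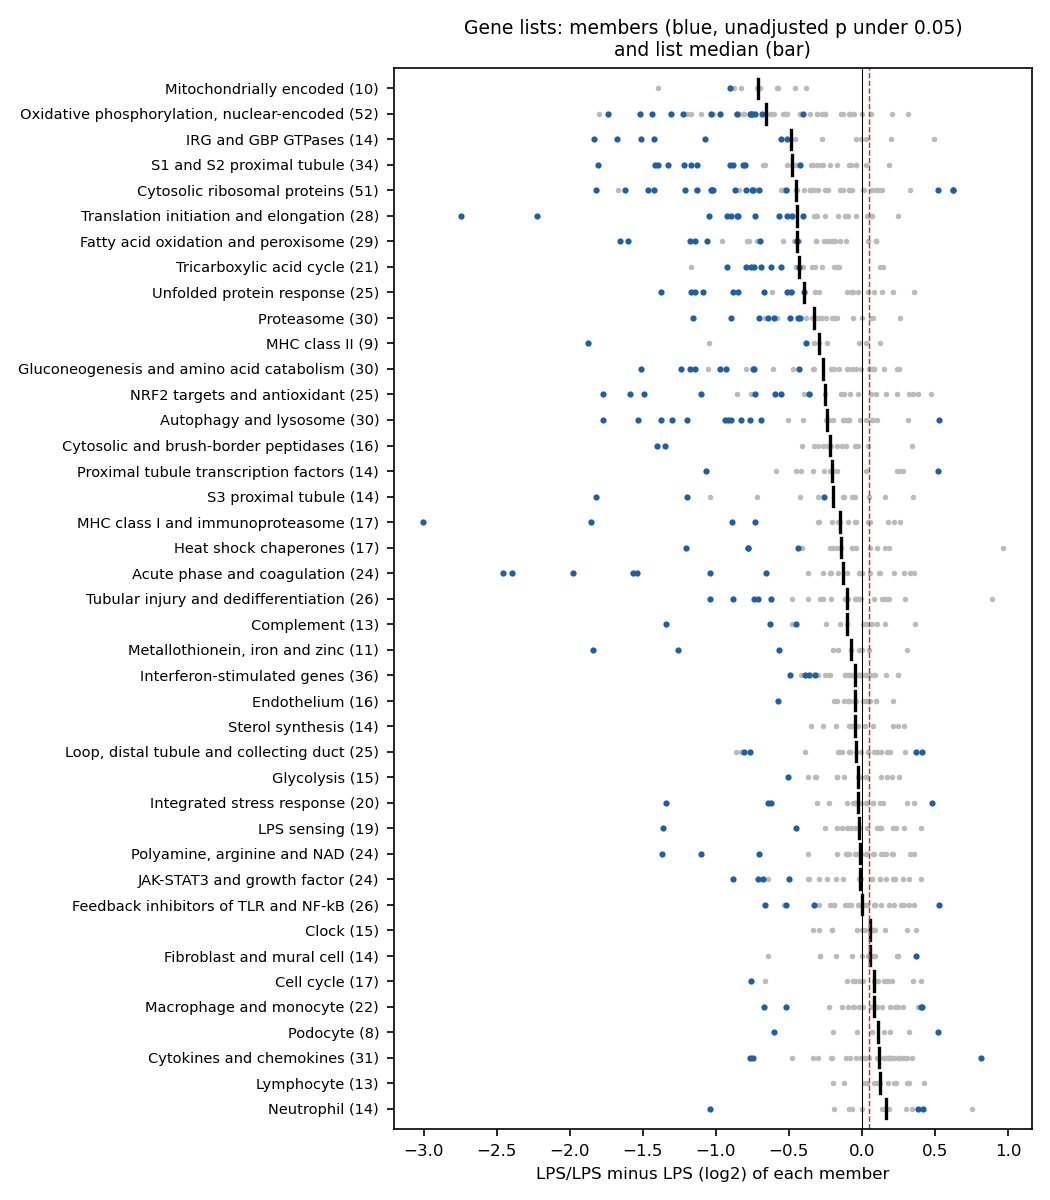
Difference between LPS/LPS and LPS (log2, horizontal axis) for every measured member of 41 gene lists, with the number measured in brackets; blue points have an unadjusted limma p under 0.05, black bars are list medians, and the dashed line is the median of 0.05 over all genes. Medians run from -0.71 for mitochondrially encoded genes to 0.16 for neutrophil markers, and in most lists with a low median single members reach well below -1.

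Translation genes were lower as well. Of 51 cytosolic ribosomal protein genes, 40 were lower, 15 at an unadjusted p under 0.05 (29.4%), and 3 were higher at that level; the median was -0.45. Without LPS replicate 3, 7 were lower at that level and the median was -0.26; it was -0.07 among narrow arrays. Rpl22 was at 4.08, 3.97, 4.20 and 4.46 against 3.35, 3.21, 3.75, 3.64 and 3.44 (difference -0.70, SE 0.14, limma adjusted p = 0.111), whereas Rplp0 differed by 0.62. Both group means of Rpl22 lay below the reference, and 24 of the 51 genes had means above it. Among 28 initiation and elongation factor genes, 24 were lower and 12 of these had an unadjusted p under 0.05 (42.9%), with a median of -0.44. Without LPS replicate 3 there were 7, and the median was -0.27. The list median was -0.63 among wide and -0.03 among narrow arrays, and 7 of the 28 genes had means above the reference. Eef1a1, which delivers aminoacyl-tRNA to the ribosome, was at 7.45, 8.11, 9.42 and 8.10 in LPS and 5.34, 3.96, 6.59, 6.93 and 4.82 in LPS/LPS. The groups did not overlap (difference -2.74, SE 0.57, limma adjusted p = 0.122). The initiation factor gene Eif4b was at 4.78, 5.19, 5.18 and 5.29 against 4.47, 4.41, 4.01, 4.01 and 4.16 (difference -0.90, SE 0.17, limma adjusted p = 0.0919), and Eef2, of elongation, differed by -2.22 (limma adjusted p = 0.234).

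Protein turnover lists leaned the same way. Proteasome genes had 27 of 30 lower, 8 at an unadjusted p under 0.05 (26.7%), with Psmd11 the 1 member past the threshold and a median of -0.33. Without LPS replicate 3, 5 members were at that level. The proteasome median was -0.52 among wide and -0.12 among narrow arrays, and 8 of the 30 genes had means above the reference. The catalytic subunit gene Psmb5 was at 5.44, 6.21, 7.09 and 6.16 against 5.18, 5.12, 5.30, 5.43 and 4.31 (difference -1.16, limma adjusted p = 0.200). Its narrow arrays gave -0.16. Autophagy and lysosome genes had 24 of 30 lower, 11 at an unadjusted p under 0.05 (36.7%), and a median of -0.24. That median was -0.15 without LPS/LPS replicate 5, -0.55 among wide and -0.05 among narrow arrays. Of these 30 genes, 15 had means above the reference. Gabarapl1, which helps to build autophagosomes, was at 5.70, 6.58, 7.50 and 5.92 against 3.97, 5.08, 4.46, 4.85 and 4.90 (difference -1.78, SE 0.40, limma adjusted p = 0.157), with no overlap. The lysosomal protease genes Ctsl and Ctsa differed by -1.53 and -0.83 (limma adjusted p = 0.277 and 0.259).

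Metal and redox genes included some of the brightest that differed. Fth1, the heavy chain of the iron store ferritin, was at 9.26, 10.37, 10.57 and 10 in LPS and 9.42, 7.89, 7.98, 8.24 and 7.50 in LPS/LPS. LPS/LPS replicate 1 overlapped with the LPS group (difference -1.84, SE 0.35, limma adjusted p = 0.0919). The metallothionein gene Mt1 was at 5.31, 6.17, 6.58 and 5.33 against 4.64, 4.77, 4.06, 4.62 and 4.86, with no overlap (difference -1.26, SE 0.25, limma adjusted p = 0.111). Metal genes as a list had a median of -0.07, with 3 of 11 lower at an unadjusted p under 0.05 (27.3%). Antioxidant genes, many of them targets of the transcription factor NRF2, had 17 of 25 lower, 8 at an unadjusted p under 0.05 (32%). Their median was -0.25, or -0.08 without LPS replicate 3, -0.45 among wide and -0.04 among narrow arrays. Gpx3, the secreted glutathione peroxidase made by proximal tubules, was at 6.70, 7.27, 7.97 and 6.95 against 6.73, 5.91, 5.34, 4.97 and 5.72 (difference -1.49, SE 0.32, limma adjusted p = 0.128). Gsr, which recycles glutathione, differed by -1.10 (limma adjusted p = 0.128) without overlap, and Gclm, of glutathione synthesis, by -0.73 (limma adjusted p = 0.161). Polyamine, arginine and NAD genes had a median of -0.02 over 24 members. The polyamine-breakdown gene Sat1 led them, at 3.37, 5.23, 2.97 and 4.00 against 2.47, 2.32, 2.24, 2.83 and 2.73 (difference -1.37, SE 0.35, limma adjusted p = 0.239), ahead of the polyamine-synthesis gene Odc1 (-1.10) and the urea-cycle gene Asl (-0.70).

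**Figure D5:**
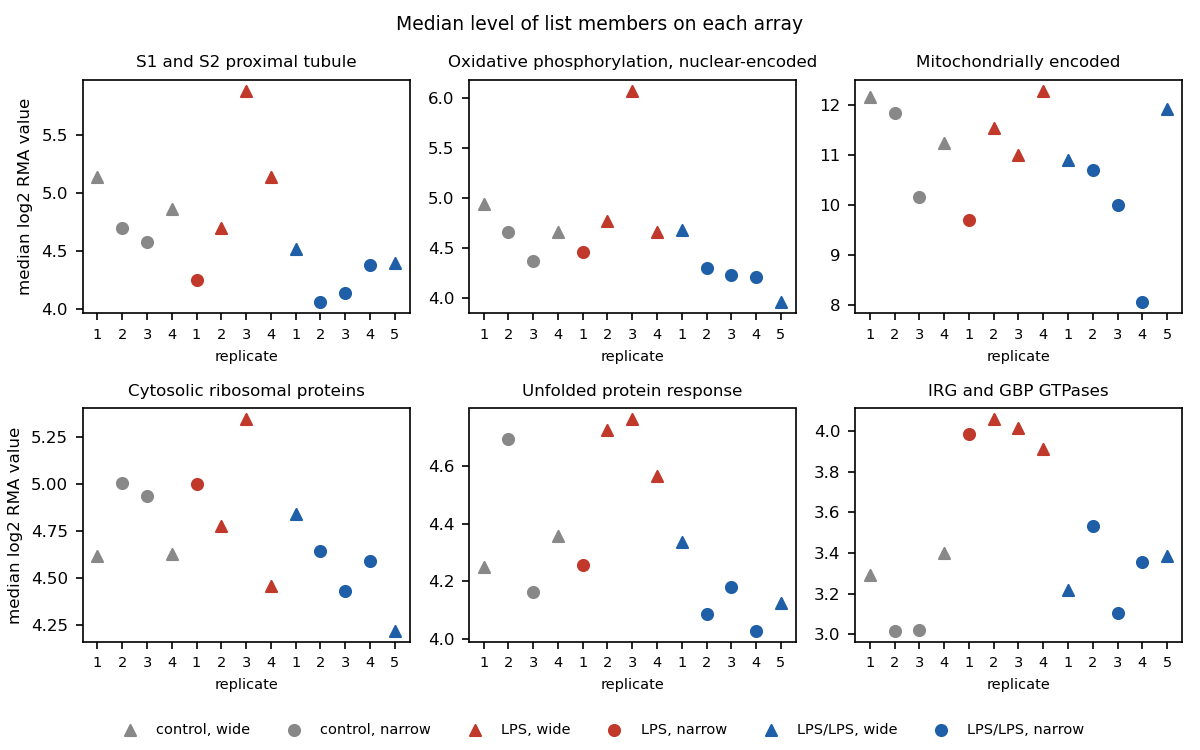
Median log2 level of the members of 6 gene lists on each array, by replicate number; grey is saline, red LPS and blue LPS/LPS, with triangles for arrays of wide and circles for arrays of narrow spread. LPS replicate 3 stands apart for S1 and S2 markers (5.88) and oxidative phosphorylation (6.07), while for IRG and GBP GTPases the LPS arrays (3.91 to 4.06) all lie above the LPS/LPS arrays (3.10 to 3.53).

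Markers of other cells gave no list with a median beyond 0.2 in size, and most of their levels were below the reference. Macrophage and monocyte markers had a median of 0.08, with 2 of 22 lower and 2 higher at an unadjusted p under 0.05. The efferocytosis receptor gene Mertk differed by -0.67 (limma adjusted p = 0.386), the Fc receptor gene Fcgr3 by 0.41 (limma adjusted p = 0.470) and the chemokine receptor gene Cx3cr1 by 0.40 (limma adjusted p = 0.490). Their summed picture by array was flat, with list medians of 3.74 to 3.95 on LPS arrays and 3.62 to 3.95 on LPS/LPS arrays. Neutrophil markers had a median of 0.16. Apart from Lcn2, which tubules also make, the lowest p-values belonged to the granule genes Elane (0.42, limma adjusted p = 0.449) and Mmp9 (0.38, limma adjusted p = 0.502). Lymphocyte markers had 11 of 13 higher, 0 at an unadjusted p under 0.05 in either direction, and a median of 0.13 (Cd3e 0.32, Cd8a 0.31, Il7r 0.22). Their list medians were 3.32 to 3.65 on LPS arrays and 3.52 to 3.81 on LPS/LPS arrays. The part that such cells play in the results above was not tested.

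Endothelial markers had a median of -0.05, with Pecam1 at -0.57 (limma adjusted p = 0.562), Ptprb at -0.19 and Erg at 0.21. Fibroblast and mural cell markers had a median of 0.06 (Lum 0.37, Col1a2 0.25, Pdgfrb 0.24). Podocyte markers had a median of 0.11, with Cd2ap, an adaptor of the slit diaphragm, at -0.60 (limma adjusted p = 0.329), the transcription factor gene Wt1 at 0.52 and Cdkn1c at 0.33. Markers of later tubule segments had a median of -0.04, with the tight-junction gene Cldn16 at 0.37, the sodium channel gene Scnn1a at -0.77 and Foxi1, of intercalated cells, at 0.41. LPS replicate 3 had the highest list median of the LPS arrays for later segments (4.69) and for fibroblasts (4.61), and without it the median difference of later-segment markers was 0.11. Of erythrocyte markers only Epb42 (0.20) and Slc4a1 (0.04) were measured.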

How the data were processed

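The authors deposited log2 expression values of 41345 probe sets for 13 arrays (0.376 to 13.8), and the submitters' processing notes name RMA and Partek 6.6. Per the labels, RNA was extracted with the PicoPure kit and 2 ng per sample was labelled by the Affymetrix WT Pico method. RMA reduces the probes of a set to 1 log2 value, and background left in it would compress differences of dim genes. How background and normalization were handled, and which genome build the annotation follows, is not given in the sources used here. With 9 arrays compared, their number limits how small a difference can be seen.

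The platform annotation gave 1 gene symbol for 23521 probe sets, several for 1814 and none for 16010; genes were tested from the first kind. Of the named sets 23328 matched RefSeq (GRCm38.p6) by Entrez identifier. For 1082 genes with several probe sets the brightest over all arrays was used.

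One linear model per gene was fitted to all 13 arrays without covariates (limma 3.58.1 in R 4.3.3, default eBayes). LPS/LPS minus LPS was taken from it, with Benjamini-Hochberg adjustment over 22180 genes and a threshold of 0.05. The array-spread comparison used an exact permutation test.

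Named genes were the 12 with the lowest p in each direction among genes whose groups did not overlap and whose higher group mean was above the reference, leaving out predicted genes, small RNAs and chemosensory receptors. All genes past the threshold, the 3 members with the lowest p in each described list, and Tlr4, Cd14, Lcn2, Havcr1, Slc5a2, Slc34a1, H2-T23, B2m and Cndp2 were added. A list was described where at least 3 members had an unadjusted p under 0.05, where its median passed 0.3 in size, or where it marks a cell type. Genes past the threshold beyond the first 10 by p were also named. The comparison, the 42 lists and these rules were chosen with earlier results of these data known. So were the reference and the classes by spread (SD over all probe sets, divided at 1.328). Alternatives covered probe set choice, normalization, centring, moderation, blocks, array weights and each array left out.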

Additional observations from a re-analysis of the deposited data

Results flagged for a closer look

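Single arrays stood apart from the rest of their group for 19 of the 270 gene and group pairs checked (135 named genes, in LPS and in LPS/LPS), by the gap to the nearest array as a share of the group's range. Chance alone gives about 1 in 20. Values are log2 levels, and the nearest value follows each.

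LPS/LPS replicate 1 was high for Tm4sf5 (5.715, next 5.136), Gbp10 (8.204, next 6.889), Hspa9 (4.508, next 3.969) and Ost4 (8.523, next 3.831), and low for Pecam1 (3.729, next 3.85). For Gbp10 and Ost4 that array carried a level nearer to the LPS arrays than to its own group. LPS/LPS replicate 2 was low for Iigp1 (4.422, next 5.079) and Cyp7b1 (3.005, next 3.127). LPS/LPS replicate 4 was high for Snhg4 (5.554, next 5.164), and LPS/LPS replicate 5 was low for Psmb5 (4.309, next 5.12) and Snord49a (3.105, next 5.502).

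Among LPS arrays, replicate 1 was low for B2m (8.391, next 10.14). Replicate 2 was high for Gbp10 (9.691, next 8.723), Cxcl9 (5.793, next 4.013) and Snord49a (4.921, next 3.285). Replicate 3 was low for Nlrp12 (4.473, next 4.74) and high for Zfp36 (4.531, next 4.106) and Cs (5.101, next 4.892). Replicate 4 was high for Herpud1 (6.523, next 5.835) and low for Fgf21 (3.695, next 4.169). None of the 14 genes past the limma threshold was among these.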

How the results depend on the processing

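Against 14 genes called by limma, all lower, a fit of only the 2 groups called 2, all probe sets together 7, quantile normalization 9, array weights 41, and a plain linear model without moderation 0, with 1910 genes at an unadjusted p under 0.05 in the moderated fit. Arrays centred on the median of genes above the reference gave 7, only the wide arrays 0 and only the narrow arrays 3. These last settings and those of the classes were added after seeing the data. Leaving out single arrays gave 5 to 96 calls. Among genes with means above the reference only, 16 were called, 318 had an unadjusted p under 0.05 (249 lower, 69 higher), and the groups did not overlap for 97 (80 lower, 17 higher). In every setting that tested them, all 14 genes were lower, but they were chosen from these same arrays, where their groups did not overlap. Of genes at an unadjusted limma p under 0.05, 52.1% were lower. The share was 63.39% with arrays centred on their median and 37.09% centred on genes above the reference. The balance of directions over all genes therefore depends on centring. Samples of the same replicate number did not deviate together (correlations -0.241, 0.0518, 0.0790 and -0.351). Each of replicates 1 to 4 fell in opposite spread classes in the 2 groups, so these correlations cannot exclude a pairing by number. The fit with the replicate block called 4 genes. The difference in array spread ranged from -0.0745 (without LPS replicate 1, exact permutation p = 0.0179) to -0.0405 (without LPS replicate 3) over single arrays left out. Of single named genes, 9 values changed sign, each far from the threshold: within the narrow arrays Ptprb 0.015, Epb42 -0.019, Myc 0.082, Aco1 0.050 and ND6 0.64, within the wide arrays Cdkn1c -0.17 and Slc4a1 -0.083, and without LPS/LPS replicate 2 Slc4a1 -0.058 and Slc5a2 0.014 (over single arrays left out, up to 0.12 for Slc4a1 and down to -0.18 for Slc5a2). The cause of these shifts was not tested. Dim genes, most of the array, limit the rest: a level below 4.77 gives no reliable size.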

Other observations

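Lists that met none of the rules for description gave smaller counts, beside 4.49% of all genes lower at an unadjusted limma p under 0.05. MHC class II genes, which present peptides to helper T cells, were lower in 7 of 9 cases with a median of -0.29, and 2 of the 9 were lower at that level. H2-Ab1, the class II beta chain gene, chosen after its values were seen, had a mean log2 level of 6.32 ± 1.32 (SD, n = 4) in LPS and 4.45 ± 0.22 (SD, n = 5) in LPS/LPS, so that it differed by -1.88 (SE 0.43, limma adjusted p = 0.166). The groups overlapped. Cytosolic and brush-border peptidases had 14 of 16 members lower and a median of -0.22, but 2 at that level, Lap3 and Cndp2.

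Transcription factors of the proximal tubule had a median of -0.21 over 14 genes, with 1 lower and 1 higher at an unadjusted p under 0.05, the higher one being Esrra. Genes of LPS sensing had a median of -0.02 over 19, with 2 lower at that level. Medians were -0.03 for 15 genes of glycolysis, -0.05 for 14 of sterol synthesis, 0.08 for 17 of the cell cycle and 0.06 for 15 of the clock, with 1, 0, 1 and 0 members lower and none higher at that level.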
